A study of Mus musculus with 12 samples.

Results

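The nuclear genes of the respiratory chain were followed in C2C12 cells, a myoblast line from muscle of C3H mice, before and after differentiation and with or without silencing of Bach1. Members were chosen by symbol alone: every probe of the deposited table whose symbol starts with Nduf, Uqcr or Atp5, or names one of the Sdh subunits or a Cox4 to Cox8 subunit. The rule took 92 of the 27306 genes with a symbol, on 143 probes. Complex I had 38 of these genes, its assembly factors 7, complex II 4, complex III 8, complex IV 17 and complex V 18. The last number counts the pseudogene Atp5c1-ps, which carries sequence of Atp5c1, and Atp5s and Atp5sl, which the symbol alone places there.

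The cells carried siControl or siBach1, which the methods call siBach1-2, and no other agent or allele is named for any group. All were grown in medium with 10% fetal bovine serum and, 24 hours after transfection and at confluence, the medium was changed to 2% horse serum. At day 0, before the change, and at day 2 after it, RNA came from 3 samples of each of the 4 conditions, for 12 one-colour Agilent arrays. The model is a single cell line in culture, and nothing in the labels says whether the 3 samples of a condition were separate cultures, so that p-values measure the spread between these samples, which may be technical.

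In the inner mitochondrial membrane, complex I takes electrons from NADH and complex II, which is also the succinate dehydrogenase of the tricarboxylic acid cycle, takes them from succinate. Complex III passes them from ubiquinol to cytochrome c and complex IV from cytochrome c to oxygen, while complex V, the ATP synthase, uses the resulting proton gradient. Some subunits are encoded in the mitochondrial genome and are not among these members. Several complex IV subunits exist as a form found in most tissues and a form typical of heart and skeletal muscle, as in the pairs Cox6a1 and Cox6a2, Cox7a2 and Cox7a1, and Cox8a and Cox8b.

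Levels are given as the log2 of the scanner's processed signal relative to the 75th percentile of the array. A probe was tested if, in 1 or more of the conditions, the scanner called it well above background on each of the 3 arrays, and it was called changed where limma's test gave a Benjamini-Hochberg adjusted p under 0.05 over all 29664 tested probes. Of the 143 member probes, 132 were tested, representing 91 of the 92 genes, and 128 were well above background on all 12 arrays. The gene without a tested probe was Cox8c, a form of the Cox8 subunit known from testis. Where a value is given per gene, it is that of the gene's brightest tested probe. Member genes were among the brightest on the array: their median level was 6.08 against 0.96 for all tested genes, and 73 of the 91 (80.2%) lay above 4.36, the 90th percentile of all tested probes.

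Bach1, the haem-regulated repressor targeted by the siRNA, was measured first. At day 0 its level was 1.73, 1.55 and 1.78 with siControl and 0.18, -0.22 and -0.22 with siBach1. At day 2 it was 2.56, 2.55 and 2.58 with siControl and 0.57, 0.56 and 0.65 with siBach1. The siRNA groups did not overlap on either day, and Bach1 was 3.42-fold lower at day 0 (limma, adjusted p = 1.2e-05) and 3.91-fold lower at day 2 (limma, adjusted p = 1.4e-05).

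An array had 47.6% to 58.9% of its 56605 probes well above background, with the lowest share on replicate 3 of siBach1 day 0. Replicates 1 and 2 were on slide 1 and replicate 3 on slide 2, and since each condition kept its own column of the slide, condition and position cannot be told apart. With 3 arrays a condition, precision is limited throughout. Of 14 markers of myoblasts and myotubes, 12 were well above background on all arrays. So were 1 of 6 adipocyte, 2 of 5 osteoblast and 3 of 6 blood cell markers. The adipocyte markers Adipoq and Cfd and the macrophage marker Adgre1 were so on none. The summed linear level of the 6 adipocyte markers, as signal over the array's 75th percentile, reached at most 0.942. The sum was 104 or more for the muscle markers. Sums of the 5 osteoblast and 6 blood cell markers reached at most 2.0 and 31.9.

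The largest changes among the members were those of Cox6a2 and Cox8b, a pair of muscle forms of complex IV subunits. Cox6a2, the muscle form of subunit VIa, had levels of -1.17, -1.80 and -1.51 in siControl cells at day 0 and of 5.00, 5.75 and 4.82 at day 2. In siBach1 cells its levels were -1.24, -2.38 and -1.39 at day 0 and 4.74, 4.60 and 4.50 at day 2. All day 2 arrays lay far above all day 0 arrays, and the rise was 103-fold with siControl (log2 6.69, SE 0.32, limma adjusted p = 1.2e-07, n = 3) and 77.8-fold with siBach1 (limma adjusted p = 1.8e-07). In such bulk samples, a change in the share of cells that make an RNA and a change in the RNA per cell cannot be told apart.

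Cox8b, the muscle form of subunit VIII, stood at -1.61, -2.39 and -2.08 in siControl and at -1.48, -1.87 and -1.55 with siBach1 before differentiation. At day 2 it reached 3.90, 4.28 and 3.52 in siControl and 4.93, 5.14 and 4.94 in siBach1 cells. It rose 61-fold with siControl (log2 5.93, SE 0.22, limma adjusted p = 3e-08) and 99.3-fold with siBach1 (limma adjusted p = 2.7e-08). At day 2 the siBach1 arrays all lay above the siControl arrays.

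Cox7a1, the muscle form of subunit VIIa, was already well above background before differentiation, at 1.08, 0.79 and 0.93 in siControl and 1.38, 1.13 and 1.20 in siBach1 cells. At day 2 it was at 2.13, 2.21 and 2.21 in siControl and 2.22, 2.60 and 2.19 in siBach1 cells. It rose 2.38-fold with siControl (log2 1.25, SE 0.12, limma adjusted p = 1.4e-05) and 2.14-fold with siBach1 (limma adjusted p = 3.2e-05). Days did not overlap under either siRNA.

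**Figure D1:**
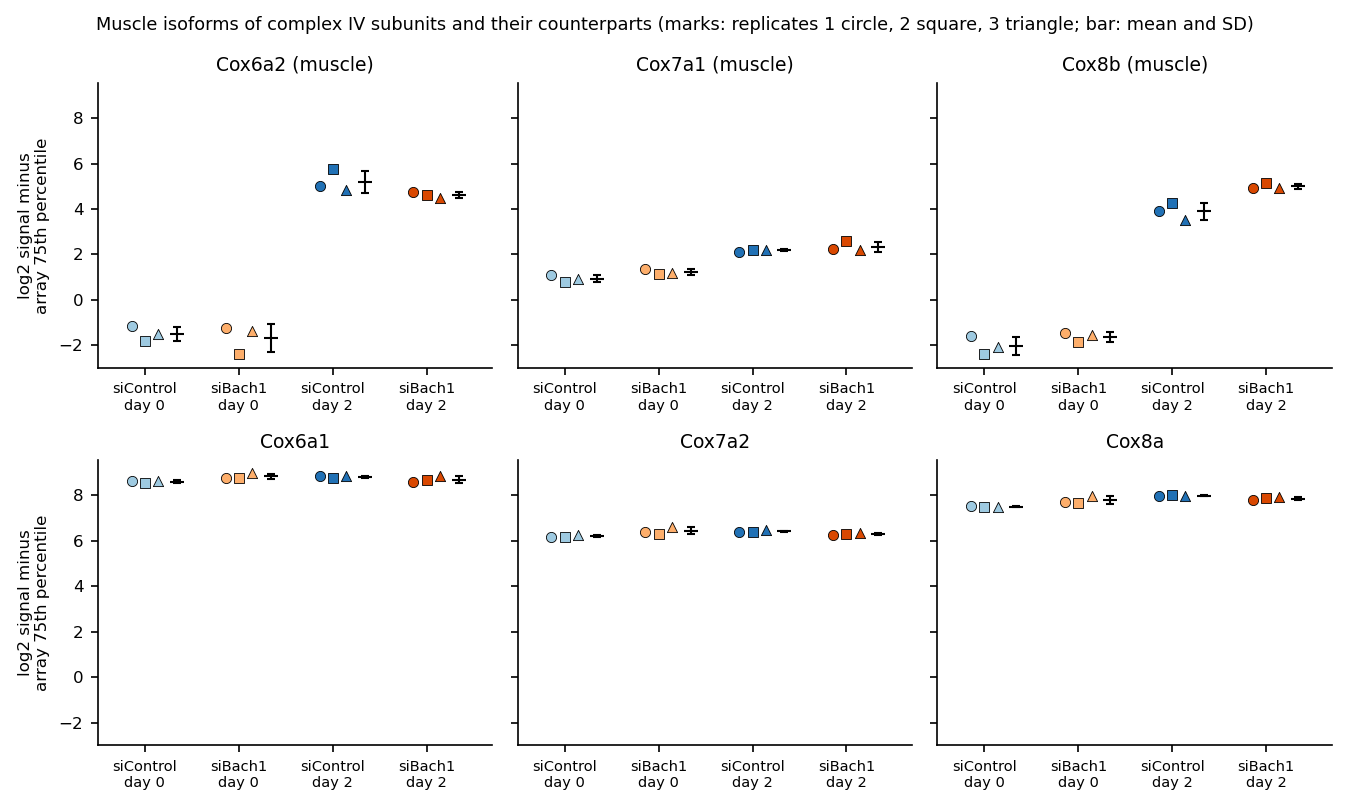
Log2 signal relative to the 75th percentile of the array for the muscle forms Cox6a2, Cox7a1 and Cox8b and their counterparts Cox6a1, Cox7a2 and Cox8a, by siRNA and day, with a mark for each of the 3 replicates and bars for the mean and SD. Cox6a2 and Cox8b climbed by 5.93 to 6.69 log2 units from day 0 to day 2 and Cox7a1 by 1.10 to 1.25, while the counterparts moved by at most 0.47.

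The forms found in most tissues moved far less. Cox8a rose by 0.47 with siControl (limma adjusted p = 0.0013) and differed by 0.08 with siBach1 (limma adjusted p = 0.51). Cox6a1 differed by 0.21 and -0.14 and Cox7a2 by 0.21 and -0.15 with siControl and siBach1, and none of these passed the test. With the replicate number as a block, the siControl values of Cox6a1 and Cox7a2 passed (limma adjusted p = 0.028 for each). The value of Cox7a2 with siBach1 turned to 0.21 under quantile normalization. Within single arrays, the log2 difference between muscle form and counterpart increased from day 0 to day 2 by 6.47 (siControl) and 6.42 (siBach1) for Cox6a2 over Cox6a1, by 1.04 and 1.24 for Cox7a1 over Cox7a2, and by 5.46 and 6.56 for Cox8b over Cox8a. The days did not overlap in any of these comparisons, each with an exact two-sided permutation p of 0.1, which is the smallest that 3 arrays against 3 allow, and 0.15 after Benjamini-Hochberg adjustment over 12 tests.

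The proximal promoters of Cox8b and Cox7a1, muscle forms that rose, are shown beside those of Cox8a, the counterpart of Cox8b, and of Cox6a1, a general form whose promoter held a match to a site of a respiratory factor. Each is the 250 bases before the RefSeq start of the gene in build GRCm38.p6, written 5′ to 3′ on the gene's strand. They lie at chr7:140900447-140900696 (minus strand) for Cox8b, chr7:30183921-30184170 (plus strand) for Cox7a1, chr19:7217617-7217866 (minus strand) for Cox8a and chr5:115348959-115349208 (minus strand) for Cox6a1. Capitals mark CAGCTG, the E-box preferred by MyoD and myogenin, in Cox8b and a pair of overlapping matches, one on each strand, to GCGCATGCG, a site of the respiratory factor NRF1, in Cox6a1.
Cox8b: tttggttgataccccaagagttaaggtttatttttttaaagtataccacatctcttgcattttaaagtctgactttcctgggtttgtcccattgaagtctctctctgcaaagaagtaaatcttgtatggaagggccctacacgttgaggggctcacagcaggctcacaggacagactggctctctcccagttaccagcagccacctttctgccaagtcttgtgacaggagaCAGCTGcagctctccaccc
Cox7a1: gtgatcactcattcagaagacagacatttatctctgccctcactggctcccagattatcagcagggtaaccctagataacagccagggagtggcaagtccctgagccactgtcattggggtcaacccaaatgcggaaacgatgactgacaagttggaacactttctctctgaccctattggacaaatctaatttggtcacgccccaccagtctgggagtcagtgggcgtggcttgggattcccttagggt
Cox8a: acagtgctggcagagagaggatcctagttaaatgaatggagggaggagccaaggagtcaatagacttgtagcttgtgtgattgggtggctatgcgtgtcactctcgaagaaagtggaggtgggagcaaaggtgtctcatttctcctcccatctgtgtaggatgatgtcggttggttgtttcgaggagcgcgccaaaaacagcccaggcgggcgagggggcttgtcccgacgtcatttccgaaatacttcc
Cox6a1: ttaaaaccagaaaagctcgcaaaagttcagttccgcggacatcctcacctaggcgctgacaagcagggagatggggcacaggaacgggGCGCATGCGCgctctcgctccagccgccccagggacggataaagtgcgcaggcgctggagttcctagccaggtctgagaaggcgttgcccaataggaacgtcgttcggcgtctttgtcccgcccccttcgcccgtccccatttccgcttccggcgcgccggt

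In Cox8b the E-box CAGCTG started 19 bases before the gene's start. A promoter was given for 72 member genes, and both strands were searched over the same 250 bases in all 32851 RefSeq promoters, which belong to 27025 genes. A gene was counted where any of its promoters held the letters. CAGCTG, which is also an instance of the general E-box CANNTG, was in 6 of the 72 (8.33%), against 14.7% of all genes, and the other 5 were Atp5b, Ndufa8, Ndufb10, Ndufs5 and Ndufv2. CANNTG itself was in 46 (63.9%) against 69.3%. GCGCATGCG was in 7 (9.72%) against 1.64% of all genes, namely Atp5g2, Atp5k, Atp5l, Cox6a1, Ndufa11, Ndufa8 and Ndufaf4. Among these, Atp5k rose by 0.48 and Ndufa11 by 0.37 from day 0 to day 2 with siControl, and the assembly factor Ndufaf4 fell by 0.87. Cox6a1 had 0.21 and Ndufa8 -0.16, and both passed with the replicate block alone (limma adjusted p = 0.028 and 0.049). A relation of the match to these changes was not tested. AAGGTCA, the site of the oestrogen-related receptors, was in 5 (6.94%) against 4.7%, CCGGAAGTG, a site of the factor GABP, was in that of Uqcrh alone (1.39% against 1.6%), and neither CTAAAAATA, a MEF2 site (0.537% of all genes), nor TGACTCAGC, a site of Bach1 and the small Maf factors (0.426%), was in any of the 72. A match is a string of letters and not a shown binding site.

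Beyond the muscle forms, differentiation of siControl cells raised many members by small amounts. Without the 3 muscle forms, 36 of 88 genes rose from day 0 to day 2 and 4 fell, with a median of 0.19. With them, 39 of the 91 genes rose and 4 fell, against 27.7% and 30.1% of all tested genes. By probe, 46 of all 132 were called higher and 10 lower, against 24.6% and 28.7% of all tested probes. The median change of the 91 genes was 0.20 on the log2 scale, against 0.01 for all tested genes, and it was positive also under quantile normalization (0.29) and normexp background correction (0.16). With a fold change of at least 2 required as well, 4 member probes, among them the muscle forms, were called higher and 3 lower (background 10.5% and 9.46%).

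Complex I and complex IV held most of these rises. In complex I, 18 of 38 genes rose and none fell (limma; 19 and 0 at an unadjusted p under 0.05), with a median of 0.23. At that unadjusted limit, 4712 of all 15642 tested genes rose and 5049 fell. Ndufv3, a subunit of the flavoprotein arm that binds NADH, rose by 0.82 on its brightest probe (limma adjusted p = 1.1e-05). Another tested probe of Ndufv3 had a change of the opposite sign that was not called, and its probes also differed in sign with siBach1. Ndufa13, an accessory subunit also known as Grim19, rose by 0.74 (limma adjusted p = 1.1e-05). In complex IV, 10 of 16 tested genes rose and none fell (12 and 0 unadjusted), with a median of 0.35. Without the 3 muscle forms this was 7 of 13 with a median of 0.31.

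Among the single forms of complex IV subunits, Cox6c rose by 0.59 (limma adjusted p = 0.00015), Cox7b by 0.38 (limma adjusted p = 0.0073) and Cox6b1 by 0.32 (limma adjusted p = 0.01). Cox4i1, the general form of the largest nuclear subunit, was at 7.08, 6.95 and 7.29 at day 0 and 7.53, 7.68 and 7.64 at day 2 with siControl, a rise of 0.51 (limma adjusted p = 0.0037). Cox4i2, its form known from lung, had -0.31 (limma adjusted p = 0.23, and 0.0061 with the replicate block). Cox7a2l, a protein that joins complexes III and IV into larger assemblies, rose by 0.62 (limma adjusted p = 0.00047). Cox6b2 and Cox7b2, forms known from testis, had 0.20 and -0.09 and did not pass the test.

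Ndufa4, named for complex I and found with complex IV, had 0.12 (limma adjusted p = 0.45), and its relative Ndufa4l2, known for its response to low oxygen, had 0.59 with a wide spread between arrays (SE 0.45). Complex III had 3 rises among 8 genes (median 0.22). These were Uqcrq at 0.56, Uqcr11 at 0.47 and Uqcrh, the hinge protein that touches cytochrome c1, at 0.37.

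Complex V had 7 rises and no fall among 18 genes (8 and 0 unadjusted; median 0.17). Its largest rises were those of Atp5s (0.97, limma adjusted p = 0.00018) and of Atp5e, the epsilon subunit of the central stalk (0.77, limma adjusted p = 0.00013). The 3 genes for the membrane c subunit did not pass the test, with -0.09 for Atp5g1, 0.17 for Atp5g2 and -0.08 for Atp5g3.

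The genes called lower were 1 of the 4 of complex II and 3 of the 7 assembly factors of complex I, and no test was made between complexes. Sdhd, a membrane anchor of succinate dehydrogenase, was at 5.83, 5.85 and 5.65 at day 0 and at 5.46, 5.37 and 5.35 at day 2 with siControl, a fall of 0.38 on the log2 scale (limma adjusted p = 0.0035). The flavoprotein Sdha (0.15, limma adjusted p = 0.076), the iron-sulfur protein Sdhb (-0.04) and the other anchor Sdhc (-0.08) did not pass the test. Of the 7 assembly factors of complex I, Ndufaf2, Ndufaf4 and Ndufaf6 fell by 0.65, 0.87 and 1.08 on the log2 scale, and Ndufaf3, which acts together with Ndufaf4, rose by 0.87. Ndufaf5 had -0.39 and passed with the replicate block alone (limma adjusted p = 0.064 without and 0.00073 with it).

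**Figure D2:**
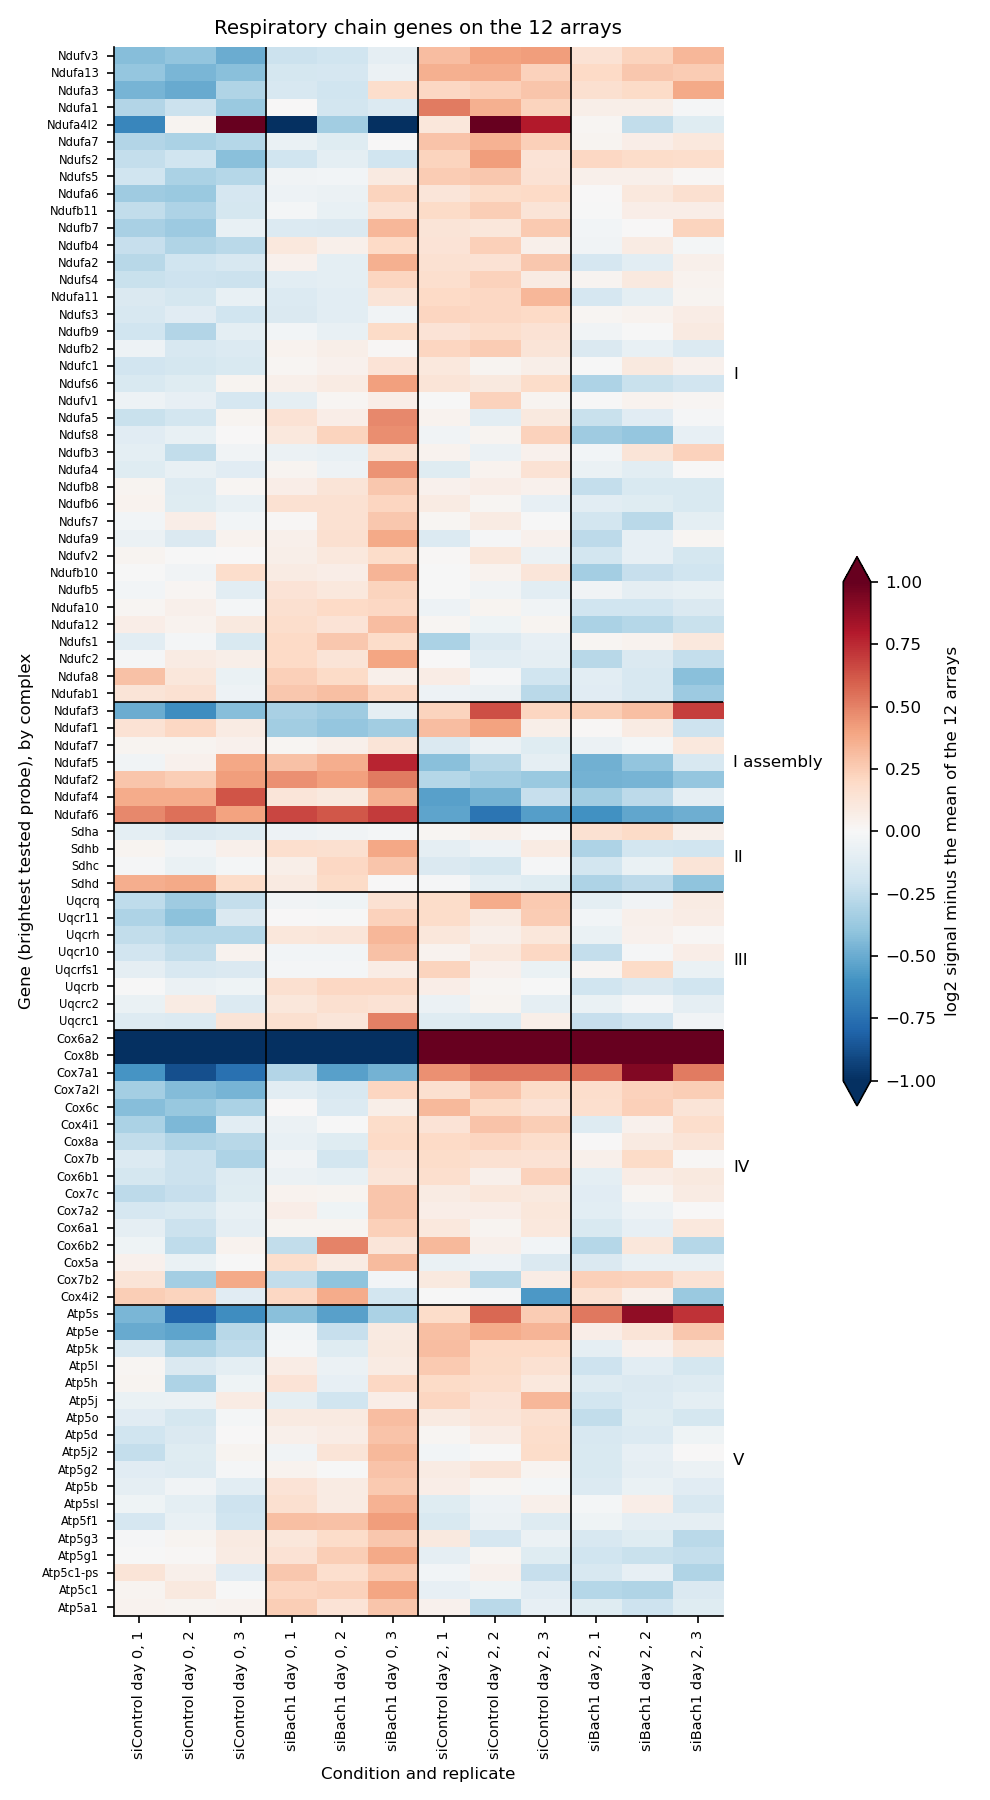
Log2 signal of the 91 tested member genes on all 12 arrays relative to the mean of each gene, with genes in rows by complex and arrays in columns by siRNA and day. The day 2 columns of Cox6a2 and Cox8b stand out from all other rows, where the change between days was at most 1.25 log2 units.

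Differentiation with siBach1 gave other counts for the same genes. From day 0 to day 2, 10 of 91 genes rose and 33 fell, against 26.7% and 33.3% of all tested genes, and by probe 17 were called higher and 46 lower, against 23.8% and 32.3%. The median was -0.16 on the log2 scale, but under quantile normalization it turned to 0.18. There, 51 probes were higher and 8 lower, with no share of all probes to set beside them. The fall of the family as a whole thus holds only relative to the 75th percentile of the array, or after normexp correction (median -0.14). Without replicate 3 of siBach1 day 0, the array with the fewest probes above background, the median was -0.07. With a fold of 2 required, 6 probes were higher and 4 lower (background 10.9% and 9.59%).

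The pattern by complex under the 75th percentile was as follows. Complex I had 4 rises and 15 falls (median -0.13), complex III 2 falls (median -0.17) and complex V 1 rise and 9 falls (median -0.24). In complex IV, the 3 rises were the muscle forms, and among the other 13 genes Cox5a alone fell, by 0.29 on the log2 scale (limma adjusted p = 0.01). Complex II had falls of Sdhb (0.48, limma adjusted p = 0.00094) and Sdhd (0.41, limma adjusted p = 0.002), while Sdha had 0.16 and Sdhc -0.22, neither of which passed the test except with the replicate block (limma adjusted p = 0.038 and 0.027). These falls of Sdhb and Sdhd came to -0.11 and -0.09 under quantile normalization and were no longer called.

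Atp5g1 and Atp5g3, which encode the same mature c subunit of the ATP synthase, fell by 0.48 (limma adjusted p = 0.00046) and 0.37 (limma adjusted p = 0.0048), and Atp5g2 had -0.21 (limma adjusted p = 0.065, and 0.043 with the replicate block). Under quantile normalization these were -0.10, 0.04 and 0.18, so that the direction of Atp5g3 and Atp5g2 flipped. Cox4i1 had -0.01 with siBach1 and 0.39 under quantile normalization.

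Among the assembly factors of complex I, Ndufaf6 fell by 1.20 (limma adjusted p = 1.1e-06), Ndufaf2 by 0.90, Ndufaf5, which modifies a core subunit, by 0.82 and Ndufaf4 by 0.43, and Ndufaf3 and Ndufaf1 rose by 0.67 and 0.32. Their median was -0.43 with siBach1 and -0.39 with siControl. Of the complex V genes, Atp5s rose, by 1.13. Both day comparisons set the members beside different day 0 arrays, and the test of their difference is the difference between days given further on.

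**Figure D3:**
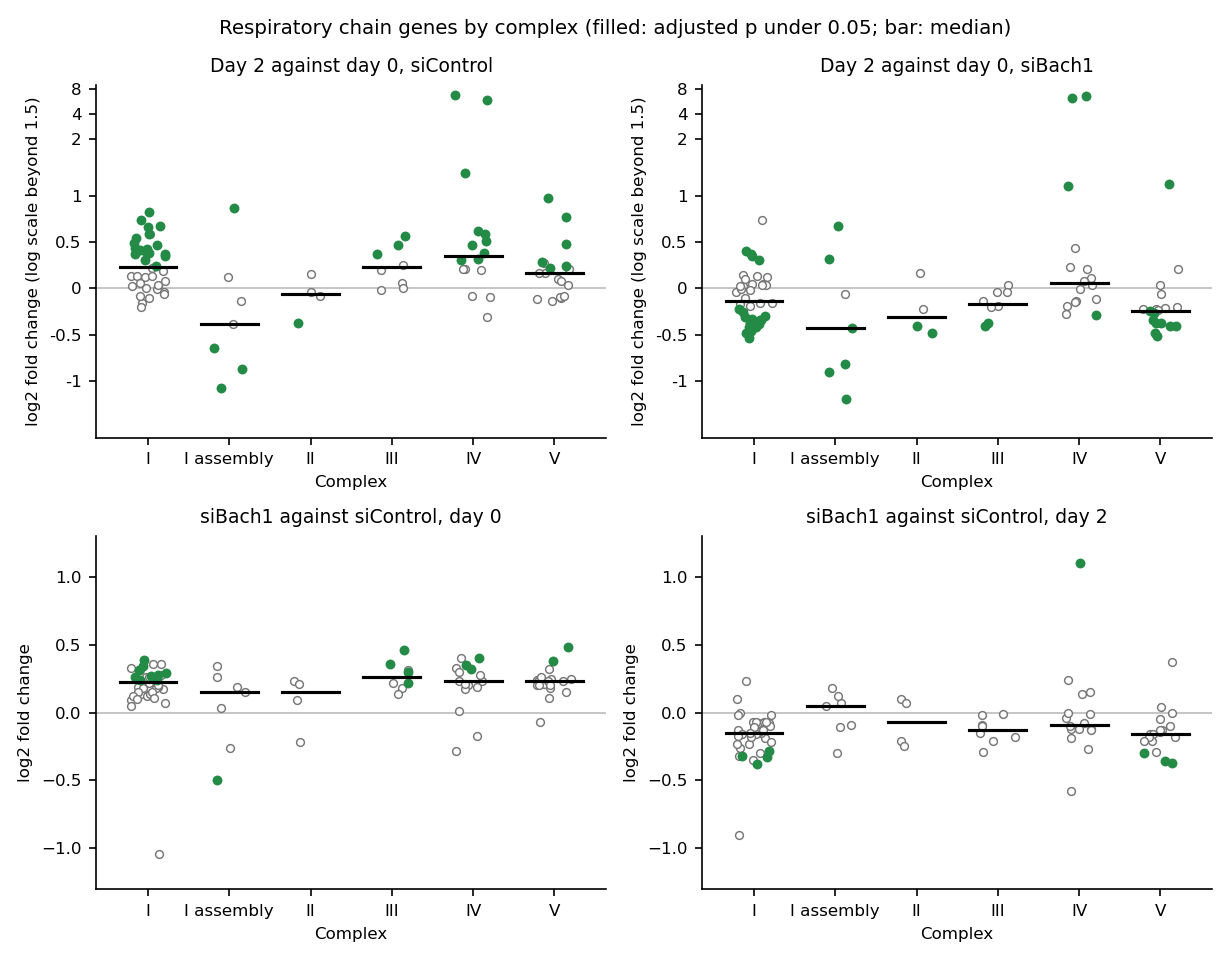
Log2 fold change of each tested member gene by complex for each comparison, with filled marks where the limma adjusted p was under 0.05 and a bar at the median; the axis of the day panels is logarithmic beyond 1.5. With siControl the complex I, III, IV and V medians lie at 0.17 to 0.35, and with siBach1 at -0.24 to 0.05, under the 75th percentile. Under quantile normalization the median of all members was 0.29 with siControl and 0.18 with siBach1, so that the sign with siBach1 rests on the scaling.

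The members were also set beside the 10% brightest tested probes. These include the probes of 73 of the 91 member genes, so that the sets overlap. Of the 10% brightest tested probes the median from day 0 to day 2 was -0.13 with siControl and -0.41 with siBach1 under the 75th percentile, and -0.05 and -0.07 under quantile normalization. The members lay above these bright probes by 0.33 with siControl under the 75th percentile, 0.34 under quantile normalization and 0.33 under normexp. With siBach1 they lay above it by 0.25, 0.25 and 0.27. Relative to these bright probes, the median of the members was thus higher at day 2 under both siRNAs in all 3 versions.

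**Figure D4:**
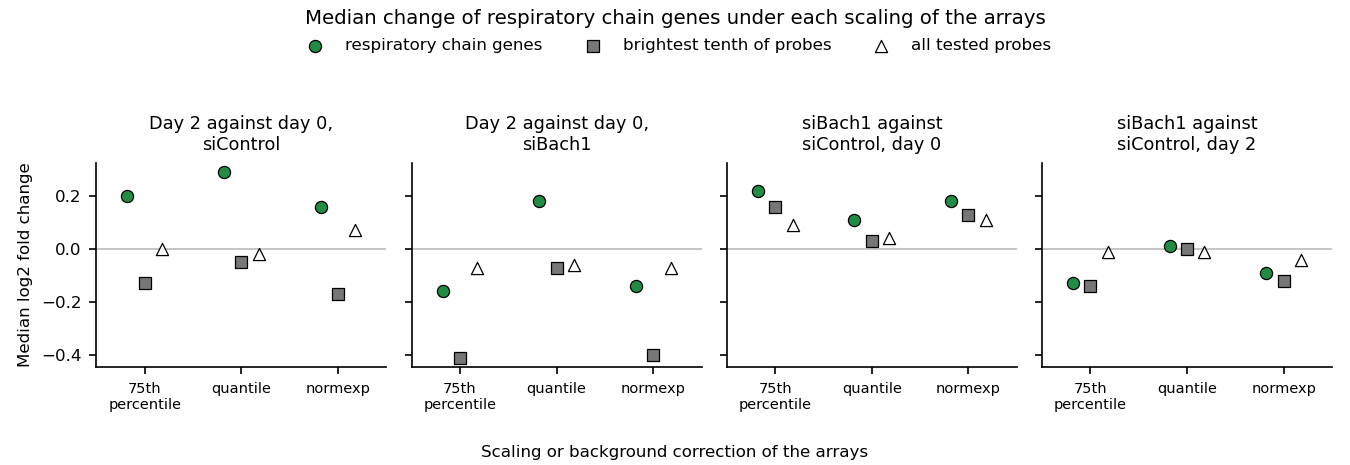
Median log2 fold change of the respiratory chain genes, of the 10% brightest probes and of all tested probes under each scaling or background correction, by comparison. The members' median for siBach1 from day 0 to day 2 is -0.16 under the 75th percentile and 0.18 under quantile normalization, and for silencing at day 2 it is -0.13 and 0.01, while the distance between members and these bright probes changes by at most 0.02.

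With silencing of Bach1 in myoblasts at day 0, more members were called higher than lower. Of the 91 genes, 18 were higher and 1 lower in siBach1 than in siControl cells, against 10.1% and 9.85% of all tested genes, and by probe 29 were higher and 3 lower, against 8.8% and 8.32%. The median was 0.22 (0.08 over all tested genes), 0.11 under quantile normalization and 0.18 under normexp. The 10% brightest probes had a median of 0.16, and the members lay above it by 0.07, by 0.08 under quantile normalization and by 0.06 under normexp, with 66 of the 91 genes above it under the 75th percentile. No member probe was higher by a fold of 2 (background 0.809%) and 2 were lower (background 1.98%).

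By complex, 9 of 38 genes of complex I, 4 of 8 of complex III, 3 of 16 of complex IV and 2 of 18 of complex V were called higher, with medians of 0.23, 0.26, 0.23 and 0.23. The share in complex V was near the 10.1% of all tested genes. In complex II, Sdha, Sdhb and Sdhc had 0.09, 0.23 and 0.21 and Sdhd -0.22, and by limma none passed the test (at an unadjusted p under 0.05, 1 was higher and 1 lower). At that limit, 3053 of all 15642 tested genes were higher and 2322 lower. With the replicate block, Sdhb and Sdhd passed (limma adjusted p = 0.039 and 0.036). Uqcrh had levels of 7.45, 7.41 and 7.41 in siControl and 7.81, 7.82 and 8.03 in siBach1 cells. The arrays did not overlap and the difference was 0.46 (SE 0.08, limma adjusted p = 0.0033, n = 3).

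Atp5f1, subunit b of the stalk that holds the ATP synthase head, was at 6.42, 6.52 and 6.39 in siControl and at 6.89, 6.88 and 7.01 in siBach1 cells. It was higher by 0.48 (SE 0.07, limma adjusted p = 0.0015), and its other probe on a curated transcript by 0.52 (limma adjusted p = 0.011). Cox7a2l was higher by 0.40 (limma adjusted p = 0.025) and Cox6c by 0.35 (limma adjusted p = 0.016). Ndufaf1, which helps to build the membrane arm of complex I, was the gene called lower, at 2.59, 2.66 and 2.53 in siControl and 2.10, 2.06 and 2.10 in siBach1 cells, a difference of -0.50 (SE 0.11, limma adjusted p = 0.0092).

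The number of higher probes moved with single arrays and with the model. It was between 8 and 19 when any array other than replicate 2 of siControl day 2 or replicate 3 of siBach1 day 2 was left out, and 7 under quantile normalization. With the replicate number as a block it was 55, with 5 lower (background 16.2% and 11.3%). The member median of the single arrays was 5.95, 5.96 and 6.02 in siControl and 6.06, 6.13 and 6.27 in siBach1 cells, the highest being replicate 3 of siBach1, the array with the fewest probes above background, whose part in the result was not tested. Without that array the median difference was 0.17.

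At day 2, the only member gene called higher in siBach1 cells on its brightest probe was Cox8b, by 1.10 on the log2 scale or 2.15-fold (SE 0.22, limma adjusted p = 0.012, n = 3), and its arrays did not overlap with those of siControl. The call was lost under 2 of 23 alternatives and under none that left out an array. Cox6a2 had -0.58 (SE 0.32, limma adjusted p = 0.28) and Cox7a1 had 0.15 (SE 0.12, limma adjusted p = 0.5). Over its counterpart Cox8a within arrays, Cox8b was higher by 1.22 with no overlap (exact permutation p = 0.1, adjusted p = 0.15). At day 0 its difference was 0.40 (limma adjusted p = 0.26), and the difference between the days, 0.70, did not pass the test (limma adjusted p = 0.23).

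Several markers of myotubes moved the other way at day 2. Of the 13 tested markers of myoblasts and myotubes, 6 were called lower in siBach1 than in siControl cells and none higher (9 and 0 at an unadjusted p under 0.05). Among all tested genes, 7.4% were called lower and 6.38% higher. At the unadjusted limit, 2551 of all 15642 were lower and 2071 higher. The markers called lower included Myog at -0.98, Myh8 at -1.01 and Mb at -1.16, and the median of the markers was -0.57. The summed linear level of the markers was 2340 to 2520 with siControl and 1520 to 1800 with siBach1, against 104 to 134 at day 0. The part of this difference in the values of the respiratory chain genes at day 2 was not tested. From day 0 to day 2 the markers rose in 12 of 13 cases with siControl and 10 of 13 with siBach1, against 27.7% and 26.7% of all tested genes.

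The median of the members at day 2 was lower in siBach1 cells under the 75th percentile and lay 0.01 above that of the 10% brightest probes. Of the 91 genes, 1 was higher and 7 lower, against 6.38% and 7.4% of all tested genes, and by probe 2 were higher and 12 lower, against 5.75% and 6.26%. By gene, the share lower was near that of all tested genes and the share higher was below it. The median was -0.13, against -0.14 for the 10% brightest probes, with 51 of the 91 genes above the latter. Under quantile normalization the median turned to 0.01, and 5 probes were higher and 3 lower, with no share of all probes to set beside them. With a fold of 2 required, 2 probes were higher and none lower (background 1.52% and 0.651%). With the replicate block, 6 were higher and 22 lower (background 9.78% and 11.6%).

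The genes called lower at day 2 were in complexes I and V. Ndufs6, an accessory subunit of the matrix arm, was at 6.91, 6.88 and 6.96 in siControl and 6.47, 6.56 and 6.59 in siBach1 cells, a difference of -0.38 (SE 0.10, limma adjusted p = 0.038). Atp5l, the g subunit of the ATP synthase membrane part, was at 7.24, 7.17 and 7.13 and at 6.77, 6.87 and 6.80, a difference of -0.37 (SE 0.08, limma adjusted p = 0.015). Neither gene's arrays overlapped.

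The others were Ndufb2 (-0.32), Ndufa1 (-0.33), Ndufa12 (-0.28), Atp5j (-0.36) and Atp5o (-0.30). Under quantile normalization, Ndufs6 and Atp5j had -0.22 and -0.23 and were no longer called. By limma, complexes II and III had no call, where an unadjusted p under 0.05 gave 2 lower genes in each, and the medians were -0.07 and -0.12. At that limit, 2551 of all 15642 tested genes were lower. In complexes II and III, the replicate block added Sdhd (-0.25), Uqcrq (-0.29) and Uqcrb (-0.21) as lower, with limma adjusted p = 0.027, 0.031 and 0.037. In complexes I and V it added Ndufa7, Ndufa11, Ndufb10, Ndufs8, Atp5d and Atp5h, and among the assembly factors Ndufaf1. The number of lower probes fell to 3 without replicate 1 of siControl day 2, 6 without its replicate 3, 2 without replicate 1 of siBach1 day 2, 4 without its replicate 2 or its replicate 3, and 7 without replicate 1 of siControl day 0.

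The silencing effects at the days were compared in the same fit. By gene, 12 were called lower in the difference of day 2 minus day 0 and none higher, against 2.74% and 3.08% of all tested genes. By probe this was 15 and 0, against 2.2% and 2.39%, and 71 were lower and 3 higher at an unadjusted p under 0.05. By gene at that limit, 58 of 91 were lower and 1 higher, against 2244 and 1614 of all 15642 tested genes. No probe passed with a fold of 2 in either direction (background 0.981% higher and 0.458% lower). The median was -0.37, against -0.07 for all tested genes and -0.29 for the 10% brightest probes, and -0.11 under quantile normalization, with 1 probe called lower.

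Complex I had 6 of these genes, complex III 3 and complex V 3. Among them were Ndufs6 at -0.64 (limma adjusted p = 0.037), Uqcrq at -0.60 (limma adjusted p = 0.029), Uqcrh at -0.56 (limma adjusted p = 0.025) and Atp5o, the oligomycin sensitivity protein of the stalk, at -0.56 (limma adjusted p = 0.028). Uqcrq, a small subunit that binds near cytochrome b, shows the shape. It was at 7.47, 7.37 and 7.49 in siControl and 7.69, 7.68 and 7.88 in siBach1 cells at day 0, and at 7.91, 8.10 and 7.99 in siControl and 7.63, 7.69 and 7.81 in siBach1 cells at day 2. The siBach1 arrays were thus above those of siControl at day 0 and below them at day 2.

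The count of the difference between days was the least stable. Without any one of the 12 arrays the number of lower probes was between 1 and 8, and with the replicate block it was 52, with 2 higher (background 7.86% and 5.16%). Without replicate 3 of siBach1 day 0 the median was -0.29.

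Some genes had probes that moved in opposite ways. Of the 132 tested probes, 111 were designed on curated RefSeq transcripts (accessions starting with NM), with a median level of 5.75, and 21 on other accessions or none, with a median level of -1.49. Of 31 genes with more than 1 tested probe, all probes had the same sign in 28 for silencing at day 0 and in 17 at day 2, and in 25 for either day comparison.

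Ndufb2, an accessory subunit of the membrane arm of complex I, is the clearest case. Its dim probe A_55_P2794853 was at -3.80, -4.16 and -4.01 in siControl and -5.32, -6.05 and -5.84 in siBach1 cells at day 0, where it was well above background on 2 of the 3 siControl arrays and on no siBach1 array. Set against the mean of the lowest signals called well above background on the siBach1 arrays, the siControl mean was 1.31-fold higher. The fitted log2 difference was -1.75 (limma adjusted p = 0.00013). The 1.31-fold is not a strict lower limit, since under normexp the log2 difference was -0.23. The bright probe A_65_P13910 was at 6.15, 6.04 and 6.06 and at 6.23, 6.26 and 6.21, a difference of 0.15 (limma adjusted p = 0.17).

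At day 2 the dim and the bright probe of Ndufb2 were both lower in siBach1 cells, with differences of -0.82 and -0.32 (limma adjusted p = 0.014 and 0.017), the dim one being well above background on 2 of the 3 siBach1 arrays. With siBach1 the dim probe's day 2 mean was 1.18-fold above the same lowest signals of day 0 (fitted 1.60 from day 0 to day 2). The bright one had -0.16 (limma adjusted p = 0.079, and 0.049 with the replicate block). Ndufa3, another accessory subunit, had a dim probe at -1.16 for silencing at day 0 (limma adjusted p = 0.0017), well above background on 1 of the 3 siBach1 arrays, while its bright probes had 0.39 (limma adjusted p = 0.011) and 0.36 (limma adjusted p = 0.055, and 0.0095 with the replicate block). Under normexp the dim probes of Ndufb2 and Ndufa3 came to -0.23 and -0.31 and were not called.

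**Figure D5:**
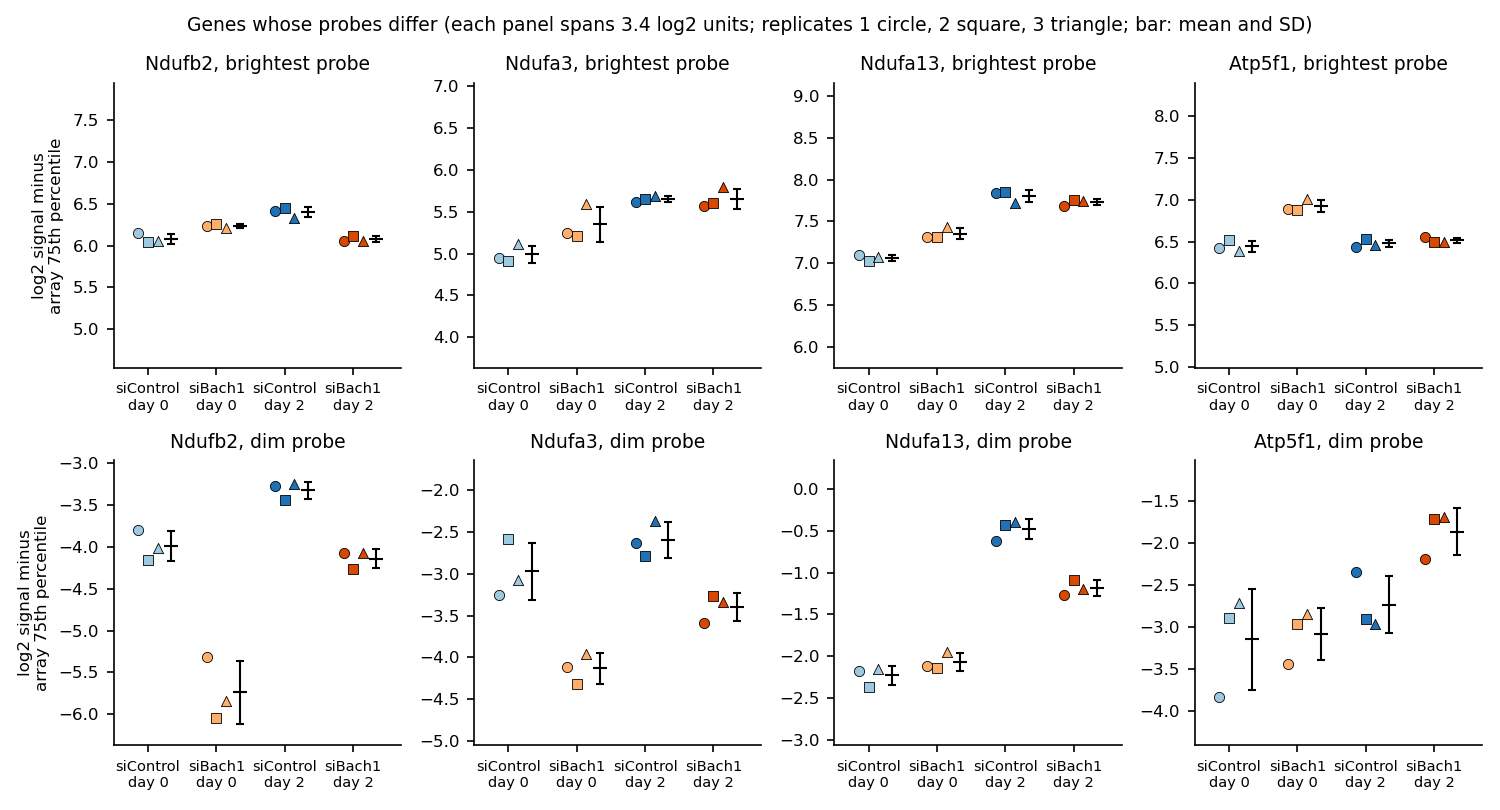
Log2 signal relative to the 75th percentile of the array for the probes of genes whose probes gave different changes, by siRNA and day, with a mark for each replicate and bars for the mean and SD; each panel spans the same number of log2 units around its own level. For Ndufb2 the dim probe is lowest in siBach1 cells at day 0 (-6.05 to -5.32), while the bright probe there is at 6.21 to 6.26.

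Other pairs differed in the day comparisons. The dim probe of Ndufa13 rose by 1.75 with siControl and the bright one by 0.74, and for silencing at day 2 these had -0.71 (limma adjusted p = 0.0021) and -0.08. Ndufab1, the mitochondrial acyl carrier protein, fell by 1.13 on the log2 scale with siControl on a probe of level 1.74 and had -0.20 on one of level 6.08 (limma adjusted p = 0.11, and 0.018 with the replicate block). Ndufb8 fell by 1.07 on its dim probe and had 0.08 on the bright one. Atp5f1 rose by 1.22 with siBach1 on a dim probe and fell by 0.41 and 0.45 on its bright ones, and the third probe of Ndufaf6 had a fitted difference of 1.38 for silencing at day 2 (limma adjusted p = 0.011), where the others had 0.07 and 0.02. That probe was well above background on 1 of the 3 siControl arrays and on all 3 siBach1 arrays at day 2. Which transcript such a dim probe reads was not tested.

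Gene groups around the chain were set beside it. Of all tested genes, 27.7% rose and 30.1% fell from day 0 to day 2 with siControl, and 26.7% rose and 33.3% fell with siBach1. Of 76 tested mitochondrial ribosomal proteins, which make the mitochondrially encoded subunits, 48 fell and 1 rose from day 0 to day 2 with siControl (median -0.40) and 68 fell and none rose with siBach1 (median -0.67). Of 45 assembly factors and electron carriers outside the symbol rule, 12 rose and 19 fell with siControl and 6 rose and 25 fell with siBach1. Of 14 genes of the tricarboxylic acid cycle, 2 rose and 5 fell with siControl and 2 rose and 7 fell with siBach1. With siControl, the share of the 45 that rose and the share of the 14 that fell were near those of all genes.

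For silencing at day 0 the ribosomal proteins had 10 higher and 1 lower (median 0.16), and at day 2 they had 1 higher and 4 lower (median -0.12), against 10.1% higher and 9.85% lower of all tested genes at day 0 and 6.38% and 7.4% at day 2. The shares higher at day 0 and lower at day 2 were thus near those of all genes. The assembly factors and carriers had 8 and 2 at day 0 and 3 and 5 at day 2, and the genes of the cycle 4 and 2, and 1 and 1. These medians and counts are descriptions, and no test was made between the groups.

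Of 15 tested regulators of mitochondrial biogenesis, 2 rose and 7 fell with siControl and 1 rose and 9 fell with siBach1, against the same 27.7% and 30.1%, and 26.7% and 33.3%, of all tested genes. Nrf1, Tfam, the transcription factor of the mitochondrial genome, and the receptor Esrra fell by 0.50, 0.39 and 0.36 on the log2 scale with siControl and by 0.58, 0.50 and 0.47 with siBach1. Ppargc1a, the coactivator known to drive respiratory genes in muscle, went up. Its probe was at -2.56, -2.53 and -3.07 in siControl and -2.49, -2.38 and -2.37 in siBach1 cells at day 0, and at -1.41, -1.27 and -1.51 in siControl and -0.45, 0.08 and -0.44 in siBach1 cells at day 2.

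Ppargc1a rose by 1.32 with siControl (limma adjusted p = 9.3e-05) and by 2.14 with siBach1 (limma adjusted p = 3.2e-06), and at day 2 it was higher in siBach1 cells by 1.13 (SE 0.17, limma adjusted p = 0.0033). All day 2 arrays of siBach1 lay above those of siControl. The difference of the silencing effects of Ppargc1a between the days, 0.82, did not pass the test (limma adjusted p = 0.086), but passed with the replicate block (limma adjusted p = 0.031). The 15 regulators as a list did not share its difference at day 2. There, 1 was called higher in siBach1 cells and 1 lower, against 6.38% and 7.4% of all tested genes. The difference was negative in 10 of the 15, with a median of -0.03. Esrrb had -0.89 (limma adjusted p = 0.063, and 0.0046 with the replicate block).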

How the data were processed

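Total RNA of 12 C2C12 samples, labelled with a single dye, was measured on Agilent SurePrint mouse arrays. The authors deposited the scanner's output of each array, with the processed signal as a background-subtracted intensity, together with a table of 56745 probes with normalized log2 values; the submitters' notes name Feature Extraction 9.1. The deposited log2 values equal the processed signal relative to the 75th percentile of the array and the median of the probe (median absolute difference 0.000962), and served as an alternative. Scale and direction are thereby known.

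Control spots were left out, as were 76 to 110 outlier spots on each array, spots of a probe were averaged on the log2 scale and the 75th percentile was subtracted. The 4 conditions were fitted together on 29664 probes with limma 3.58.1 under R 4.3.3, without a block, by code checked on simulated data. In that check, for silencing at day 2, each size of change was given to 50 of the 29664 probes, drawn from all levels. Of changes of 0.5 on the log2 scale, 18% were called. Of changes of 1, -1 and 2, 64%, 72% and 76% were called, as were 8 unchanged probes. Far more probes were called in the data, and most members are bright, so these rates do not give the share of member changes missed. Small changes may still have been missed. Pairs were tested by exact permutation (scipy 1.17.1). Where a probe was not well above background in a group, a fold is given against the lowest signal among probes that were, which is not a strict limit. Symbols are those of the deposited table; 119 of 143 member accessions were found in RefSeq, 109 of them under the same symbol. Since the arrays' own files give an older build, coordinates are given only for the RefSeq promoters.

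Arrays with the same replicate number had correlated deviations in all 18 pairs (0.142 to 0.595, median 0.332; other pairs -0.443 to 0.265). They share a slide or its row, so the number pairs the samples, and the blocked values stand beside the counts they move by over 1.5 times and beside the named values whose call they change. Named were the isoform and Sdh genes, the 5 largest called rises and falls of each comparison, genes whose probes disagree, and Bach1. The members, lists and tests were chosen with earlier results of these data known. Alternatives were quantile normalization, normexp (offset 50), the deposited values, no filter on dim probes, a block for replicate or for slide, a fit of the arrays compared alone, a robust prior, the methods' t-test, 1 probe per gene, a fold of 2 and each array left out. The use of slide 1 or slide 2 alone was chosen after seeing the data. A member gene that is part of the counts is not reported here by name.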

Additional observations from a re-analysis of the deposited data

Results flagged for a closer look

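The silencing effect differed between the days, by the limma test of day 2 minus day 0, for 15 member probes, all with a negative difference on the log2 scale. In complex I these were Ndufa13 on its dim probe (-0.86), Ndufs6 (-0.64), Ndufb4 (-0.52), Ndufb2 on its bright probe (-0.47), Ndufa7 (-0.46), Ndufs5 (-0.46) and Ndufa12 (-0.42). In complex III they were Uqcrq (-0.60), Uqcrh (-0.56) and Uqcrb (-0.43). In complex V they were Atp5l (-0.57 and -0.48), Atp5o (-0.56 and -0.49) and Atp5f1 (-0.45). Under quantile normalization, 1 member probe was called lower in this test. The difference of Ndufa13 was lost in 2 of 21 alternatives and that of Ndufs6 in 13 of 22.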

How the results depend on the processing

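The rise of Cox6a2, Cox8b and Cox7a1 from day 0 to day 2 kept its direction and call under every alternative run. Counts of member probes were less stable. Values below are counts of probes called higher and lower on the log2 scale. For most alternatives the share of all tested probes is not given.

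For silencing at day 0 (29 higher, 3 lower), higher probes numbered 7 under quantile normalization, 2 without the filter, 7 with only the arrays compared, 12 and 50 by the methods' t-test with and without adjustment, 11 on slide 1 and 0 with a fold of 2. The replicate block gave 55 and 5, the slide block 57 and 5, and 1 probe per gene 1 lower. Leaving out 1 array gave 8 to 25 higher. The median (0.22) was 0.11 under quantile normalization and 0.31 on slide 2.

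For silencing at day 2 (2 higher, 12 lower), quantile normalization gave 5 and 3 and turned the median from -0.13 to 0.01. The replicate block gave 6 and 22, the slide block 7 and 24, and the unadjusted t-test 7 and 44, with 0 higher after adjustment. Higher probes numbered 1 under normexp and with 1 probe per gene. Lower probes numbered 2 without the filter and on slide 1, 3 with only the arrays compared and 0 with a fold of 2, and leaving out 1 array gave 2 to 14.

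From day 0 to day 2 with siControl (46 and 10), a fold of 2 left 4 and 3, 1 probe per gene gave 4 lower, and the median was 0.29 under quantile normalization. With siBach1 (17 and 46), quantile normalization gave 51 and 8 and turned the median from -0.16 to 0.18, Cox4i1 to 0.39, Atp5g3 to 0.04, Atp5g2 to 0.18 and Cox7a2 to 0.21, and a fold of 2 left 6 and 4. Leaving out 1 array moved this median between -0.18 and -0.07.

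For the difference between the days (0 and 15), lower probes numbered 1 under quantile normalization, 0 without the filter, on slide 1 and with a fold of 2, 36 with a robust prior, 26 with 1 probe per gene, and 32 and 75 by the t-test with and without adjustment, the last with 2 higher. The replicate block gave 2 and 52 and the slide block 2 and 61. Leaving out 1 array gave 0 to 1 higher and 1 to 8 lower, with medians of -0.41 to -0.29, and quantile normalization gave a median of -0.11. The cause of these shifts was not tested.

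Of 188 values of named genes, each under its alternatives, 4191 kept direction and side of the threshold, 264 lost the call, 147 gained one and 4 reversed. With the replicate block no named call was lost and 22 were gained. Signal near background limits the dim probes, whose changes shrank under normexp.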
